A study of Mus musculus with 8 samples.

Results

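The genes described here are those of mitosis and the spindle: cyclins and kinases that drive entry into division, the spindle checkpoint, kinetochore proteins, spindle motors, condensins and the proteins of cytokinesis. A list of 46 gene symbols was matched to array probe sets that carry exactly 1 symbol, and for each gene the probe set with the highest mean over all 8 arrays was used. This gave 45 measured genes out of 19938 genes in all. The cyclin B1 gene Ccnb1 is not analysed here, because no probe set was paired with it in the annotation used. The values come from 3134 cells, a mouse mammary tumour line derived from C127 that carries, stably integrated, A-fos and the tetracycline regulator tTA of a Tet-Off system. All 4 groups carry A-fos, a Fos-derived dominant negative that pairs with Jun proteins and blocks DNA binding by AP-1. The groups, named by their sample titles, were plus tetracycline with 4 h of 100 nM dexamethasone, plus tetracycline untreated (0 h), no tetracycline with 4 h of dexamethasone and no tetracycline untreated, with 2 arrays each. Dexamethasone is a synthetic ligand of the glucocorticoid receptor, and the cells had been in charcoal-treated serum for 48 h. The treatment protocols give the opposite tetracycline state (1 ug per ml) to the title for every sample. The arms are therefore called plus-titled and no-titled, and the labels leave unsettled in which arm A-fos was on. The line is a single derived line, and nothing in the labels says that the 2 arrays of a group came from separate cultures, and the p-values rest on a spread between samples that may be purely technical.

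In a dividing cell, cyclin A and cyclin B bind the kinase CDK1 and start mitosis, the kinases PLK1 and Aurora A and B build the spindle, and the checkpoint proteins hold back the anaphase-promoting complex until every kinetochore is attached. The complex, with its activator CDC20 and the ubiquitin-conjugating enzyme UBE2C, then marks cyclin B and securin for destruction, separase cuts cohesin and the cell divides. The genes of these proteins are transcribed together late in the cycle. Many of their promoters hold a cell cycle homology region (CHR) and CCAAT boxes. The CHR is bound by complexes built on MuvB, which repress in resting cells together with p130 and E2F4 and activate in cycling cells together with B-Myb and FOXM1. The CCAAT box is bound by NF-Y.

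The promoters are shown because these letters are frequent among the genes, although not all of the genes hold them. RefSeq promoter windows (build GRCm38.p6, from 250 bases before to 50 after the annotated start) were found for 38 of the 46 genes. Each stretch below is the 100 bases just before the start, 5′ to 3′ on the strand of the gene, with CHR letters (TTTGAA, or TTCAAA on the other strand) and CCAAT letters (or ATTGG) in capitals. Ube2c, Cdc20 and Top2a were called lower in the plus-titled arm, and Cdk1 and the spindle motor gene Kif11 were below 0 without passing the test. They lie at chr2:164769829-164769928 (plus strand), chr4:118437344-118437443 (minus), chr11:99024190-99024289 (minus), chr10:69352913-69353012 (minus) and chr19:37376282-37376381 (plus), just before the annotated start of each gene.
Ube2c: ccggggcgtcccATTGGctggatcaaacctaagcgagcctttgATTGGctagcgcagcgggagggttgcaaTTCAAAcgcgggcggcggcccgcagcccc
Cdc20: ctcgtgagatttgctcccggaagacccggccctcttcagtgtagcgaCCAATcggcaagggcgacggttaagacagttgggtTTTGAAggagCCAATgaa
Top2a: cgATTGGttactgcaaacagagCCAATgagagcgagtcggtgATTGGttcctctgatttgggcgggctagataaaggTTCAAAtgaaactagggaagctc
Cdk1: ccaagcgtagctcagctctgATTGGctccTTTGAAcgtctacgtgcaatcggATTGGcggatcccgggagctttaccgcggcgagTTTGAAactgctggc
Kif11: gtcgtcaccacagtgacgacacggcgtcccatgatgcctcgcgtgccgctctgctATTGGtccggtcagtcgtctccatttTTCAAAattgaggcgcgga

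These 5 were chosen after the motif positions and the arm differences were seen, and in each a CCAAT box lies upstream of a CHR that is within 30 bases of the start. They do not stand for all: 8 of the 38 promoters had TTTGAA in the 30 bases before the start, 21 had it only elsewhere in the window and 9 had none. TTTGAA was present on either strand in 29 of the 38 promoter windows (76.3%), against 20.2% of the windows of 27025 genes in the same table. CCAAT was present in 31 (81.6%), against 41.1% of all, and both motifs in 26 (68.4%), against 7.97%. Within 50 bases of the start on either side, a window chosen after the positions were seen, the shares were 68.4% against 5.72% for TTTGAA and 60.5% against 15.6% for CCAAT. The E2F letters TTTNNCGC were present in 7 windows (18.4%, against 5.93%), and the AP-1 letters TGANTCA in 0 of 38, against 8.97% of all. Motifs were counted separately on both strands, so matches of different motifs may overlap, and a match describes letters and not a bound site.

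**Figure D1:**
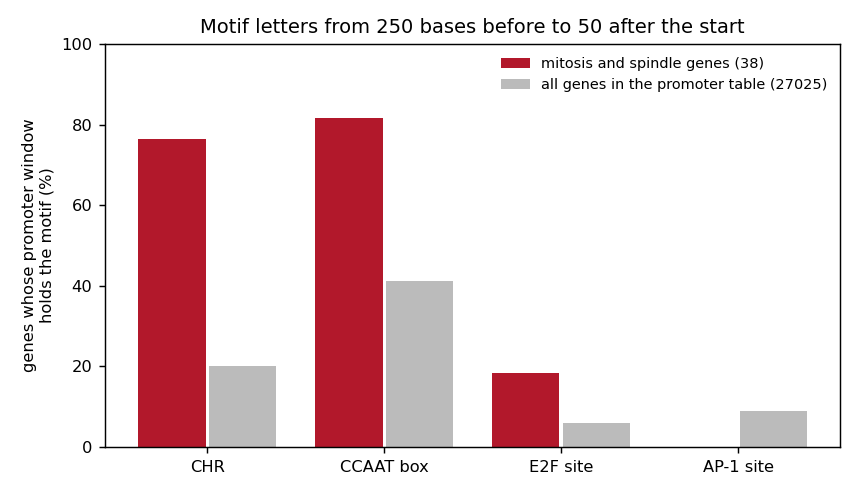
Share of genes (percent, vertical axis from 0) whose promoter window holds each motif, for 38 mitosis and spindle genes (red) and all 27025 genes of the promoter table (grey). CHR letters are in 76.3% of the mitotic promoters and 20.2% of all, and AP-1 letters are in 0 of the 38 mitotic promoters and 8.97% of all.

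RNA was measured as log2 signals of probe sets on Affymetrix arrays. Array medians over the genes lay between 5.59 and 5.69, with the lowest on replicate 1 of the untreated plus-titled group, and replicates correlated at 0.993 to 0.996 across genes. The 2 untreated plus-titled arrays differed the most, with 24 genes over 2-fold apart. Precision is limited by the number of arrays. Levels of different probe sets are not comparable with each other, so only differences are set side by side below.

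All 45 measured mitosis and spindle genes had lower mean values in the plus-titled than in the no-titled arm, at 4 h and at 0 h alike, a sign pattern that 37.6% of all genes shared. For the mean of the arm differences at the 2 times, 34 of 45 were called lower (75.6%) and 0 higher, at a limma adjusted p under 0.05 over all genes, against 7.74% of all genes called lower and 11.0% called higher. The median difference of the 45 was -0.39 on the log2 scale, against -0.02 for all genes. Differences ran from -0.72 for Anln, which encodes the cytokinesis scaffold anillin, to -0.13 for Spc25, which encodes a subunit of the NDC80 kinetochore complex. The shift was modest for each gene: 6 were at least 1.5-fold lower and 0 reached 2-fold. In RNA of a whole culture, fewer cells in a phase of the cycle and less RNA per cell cannot be told apart.

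The mean deviation of the 45 genes from their own means was -0.19 and -0.32 on the plus-titled arrays at 4 h and 0.00 and -0.30 at 0 h, against 0.19 and 0.10 on the no-titled arrays at 4 h and 0.30 and 0.21 at 0 h (log2, replicates 1 and 2). The arms did not overlap in this mean, and the nearest pair was replicate 1 of the untreated plus-titled group and replicate 2 of the treated no-titled group. For single genes, all 4 plus-titled arrays were below all 4 no-titled arrays in 29 of 45 cases, against 9.05% of all genes. The genes also moved together within groups. Replicate 1 was the higher of the 2 arrays for 37 of the 45 genes in the treated plus-titled group, 43 in the untreated plus-titled group, 36 in the treated no-titled group and 33 in the untreated no-titled group. The 45 genes are therefore not 45 independent readings of the arm difference.

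**Figure D2:**
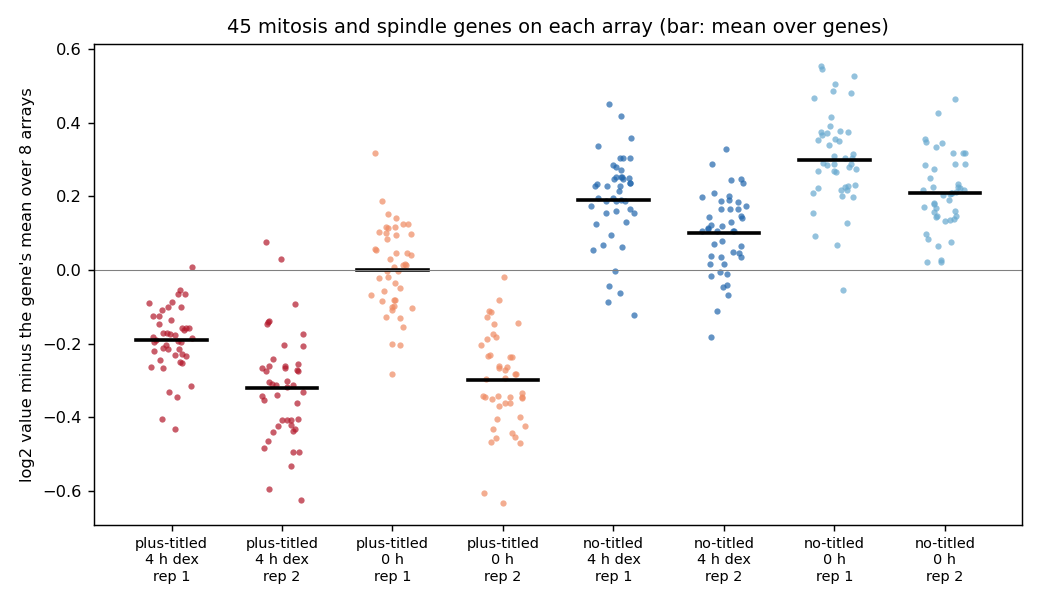
Each point is 1 of the 45 genes on 1 array, as its log2 value minus its own mean over the 8 arrays, and black bars are means over genes. The plus-titled bars lie between -0.32 and 0.00 and the no-titled bars between 0.10 and 0.30.

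The measured cyclin genes of the set, Ccnb2 and Ccna2, were lower in the plus-titled arm. Ccnb2, which encodes cyclin B2, read 9.07 and 8.94 in plus-titled cells at 4 h and 9.12 and 8.91 at 0 h, against 9.50 and 9.45 in no-titled cells at 4 h and 9.48 and 9.54 at 0 h (log2). The arms did not overlap, and the mean difference was -0.48 ± 0.08 (SE, limma adjusted p = 0.00199). Ccna2, the cyclin A2 gene, read 9.88 and 9.63 in plus-titled cells at 4 h and 10.12 and 9.68 at 0 h, against 10.46 and 10.31 in no-titled cells at 4 h and 10.50 and 10.41 at 0 h. It too fell without overlap, by 0.59 ± 0.11 (adjusted p = 0.0033). Cdk1, the kinase they activate, read 9.81 and 9.52 in plus-titled cells at 4 h and 9.97 and 9.53 at 0 h, against 9.97 and 9.91 in no-titled cells at 4 h and 10.19 and 10.09 at 0 h. Its arms overlapped at 9.97 and 9.91, and the difference of -0.33 ± 0.11 just missed the threshold (adjusted p = 0.0567). Of the phosphatase genes that switch CDK1 on, Cdc25b was called lower (-0.32, adjusted p = 0.0239), although its arms overlapped at 7.82 and 7.80. Cdc25c overlapped more widely and was not called, with a difference of -0.19 (95% interval -0.42 to 0.05, adjusted p = 0.278). Cdc25c read 6.91 and 7.27 in plus-titled cells at 4 h and 7.25 and 7.16 at 0 h, against 7.12 and 7.45 in no-titled cells at 4 h and 7.31 and 7.46 at 0 h.

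All 7 genes of the mitotic kinases and the chromosomal passenger complex were called lower in the plus-titled arm for the mean difference, against 7.74% of all genes. All 7 also had every plus-titled array below every no-titled array, against 9.05% of all genes. The role groups share arrays and their genes move together, so the counts by role are not separate results. Aurkb, the kinase of the passenger complex, read 8.68 and 8.69 in plus-titled cells at 4 h and 8.73 and 8.70 at 0 h, against 9.12 and 9.26 in no-titled cells at 4 h and 9.13 and 9.14 at 0 h. The difference of -0.46 ± 0.07 (adjusted p = 0.00147) was wide against the spread of its replicates. Its partners differed by -0.45 for Birc5 (survivin, adjusted p = 0.00724), -0.40 for Cdca8 (borealin, 0.0317) and -0.29 for Incenp (0.0495). Incenp, the scaffold of the complex, read 8.30 and 8.15 in plus-titled cells at 4 h and 8.21 and 7.93 at 0 h, against 8.48 and 8.44 in no-titled cells at 4 h and 8.51 and 8.32 at 0 h. The gap between the nearest arrays of its arms was only 0.025.

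Nek2, a centrosome kinase gene, read 8.29 and 8.30 in plus-titled cells at 4 h and 8.62 and 8.34 at 0 h, against 8.76 and 8.71 in no-titled cells at 4 h and 8.88 and 8.94 at 0 h. It was lower by -0.43 ± 0.08 as a log2 difference (adjusted p = 0.00451). Plk1 read 8.99 and 8.85 in plus-titled cells at 4 h and 9.09 and 8.78 at 0 h, against 9.30 and 9.16 in no-titled cells at 4 h and 9.50 and 9.33 at 0 h, without overlap. The Plk1 difference was -0.40 ± 0.09 (adjusted p = 0.0134), close to that of Aurka, the spindle pole kinase gene, at -0.41 ± 0.09 (0.00732).

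All 5 spindle checkpoint genes were called lower for the mean difference, against 7.74% of all genes. Bub1b, which encodes the checkpoint protein BUBR1, read 8.53 and 8.39 in plus-titled cells at 4 h and 8.60 and 8.35 at 0 h, against 8.98 and 8.89 in no-titled cells at 4 h and 8.91 and 8.95 at 0 h. Its arms were apart by more than any replicate pair, with a difference of -0.47 ± 0.08 (adjusted p = 0.00313). Mad2l1, whose protein MAD2 binds CDC20, read 10.69 and 10.48 in plus-titled cells at 4 h and 10.92 and 10.73 at 0 h, against 11.14 and 10.97 in no-titled cells at 4 h and 11.19 and 11.11 at 0 h. The arms did not overlap and differed by -0.40 ± 0.09 (adjusted p = 0.00943). Ttk, the MPS1 kinase gene, had the least certain call of the 5, with arms that overlapped narrowly and a difference of -0.44 ± 0.13 (adjusted p = 0.0323). It read 7.06 and 6.83 in plus-titled cells at 4 h and 7.39 and 6.78 at 0 h, against 7.49 and 7.35 in no-titled cells at 4 h and 7.59 and 7.41 at 0 h. Bub1 and Bub3 differed by -0.37 (adjusted p = 0.0205) and -0.32 (0.0225).

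The genes that start anaphase split into a called and an uncalled pair. Ube2c read 7.42 and 7.15 in plus-titled cells at 4 h and 7.31 and 7.23 at 0 h, against 7.95 and 7.88 in no-titled cells at 4 h and 7.88 and 7.91 at 0 h. The gap of 0.46 between the nearest arrays of the arms was the widest of the 45 genes, and the difference was -0.62 ± 0.08 (adjusted p = 0.000519). Cdc20 read 7.83 and 7.99 in plus-titled cells at 4 h and 8.06 and 8.03 at 0 h, against 8.50 and 8.45 in no-titled cells at 4 h and 8.55 and 8.69 at 0 h, and was lower with a difference of -0.57 ± 0.08 (adjusted p = 0.00064). The other pair was not called. Pttg1, the securin gene, read 6.30 and 6.72 in plus-titled cells at 4 h and 6.56 and 6.53 at 0 h, against 6.77 and 6.82 in no-titled cells at 4 h and 6.59 and 6.87 at 0 h, which overlap (-0.23, 95% interval -0.46 to 0.00, adjusted p = 0.174). Espl1, the separase gene, differed by -0.25 (adjusted p = 0.0693).

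Of 6 centromere and kinetochore genes, 4 were called lower, against 7.74% of all genes. Cenpf, which encodes a large kinetochore protein, read 7.32 and 7.16 in plus-titled cells at 4 h and 7.37 and 7.01 at 0 h, against 7.73 and 7.61 in no-titled cells at 4 h and 7.96 and 7.67 at 0 h. The arms did not overlap, with a difference of -0.53 ± 0.10 (adjusted p = 0.00493). The proteins of Ndc80, Nuf2 and Spc25 sit in 1 complex that grips microtubules, and their genes differed by unequal amounts. Nuf2 read 8.74 and 8.74 in plus-titled cells at 4 h and 8.83 and 8.65 at 0 h, against 9.14 and 9.02 in no-titled cells at 4 h and 9.13 and 9.05 at 0 h, and was called (-0.35 ± 0.08, adjusted p = 0.0102). Spc25 read 8.13 and 8.20 in plus-titled cells at 4 h and 8.39 and 8.18 at 0 h, against 8.25 and 8.31 in no-titled cells at 4 h and 8.42 and 8.46 at 0 h, so that the arms overlapped (-0.13, 95% interval -0.31 to 0.04, adjusted p = 0.295). Ndc80 itself had a difference of -0.28 (adjusted p = 0.163), and its untreated plus-titled replicates lay far apart, at 7.52 and 6.86. The remaining called genes were Cenpa, the centromere histone (-0.33, adjusted p = 0.0174), and Cenpe, a kinetochore motor (-0.36, 0.0396).

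Among 6 genes of spindle motors and microtubule proteins, 3 were called lower, against 7.74% of all genes. Tpx2, whose protein activates Aurora A on microtubules, read 9.01 and 8.94 in plus-titled cells at 4 h and 9.22 and 8.87 at 0 h, against 9.51 and 9.37 in no-titled cells at 4 h and 9.43 and 9.29 at 0 h. The arms did not overlap, and the difference was -0.39 ± 0.09 (adjusted p = 0.0145). Kif4, a chromosome-arm kinesin gene, read 7.71 and 7.49 in plus-titled cells at 4 h and 8.01 and 7.47 at 0 h, against 8.18 and 8.06 in no-titled cells at 4 h and 8.20 and 8.04 at 0 h (-0.45 ± 0.12, adjusted p = 0.0211). Kif2c, a microtubule-depolymerising kinesin gene, differed by -0.36 (adjusted p = 0.0333). Kif11 at -0.36 (adjusted p = 0.0592), Hmmr at -0.35 (0.0971) and Ckap2 at -0.22 (0.147) did not pass. Ckap2 read 6.65 and 6.59 in plus-titled cells at 4 h and 6.94 and 6.56 at 0 h, against 6.71 and 6.73 in no-titled cells at 4 h and 7.19 and 7.01 at 0 h, so that the groups were close at 4 h.

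The genes of the central spindle and cytokinesis held the largest difference. Anln read 9.40 and 9.15 in plus-titled cells at 4 h and 9.46 and 9.01 at 0 h, against 9.92 and 9.73 in no-titled cells at 4 h and 10.17 and 10.08 at 0 h. The no-titled arrays were higher on every comparison, and the mean difference was -0.72 ± 0.11, or 1.65-fold lower in the plus-titled arm (adjusted p = 0.00113). Kif23, the motor of the centralspindlin complex, read 7.92 and 7.70 in plus-titled cells at 4 h and 8.41 and 8.09 at 0 h, against 8.54 and 8.43 in no-titled cells at 4 h and 8.83 and 8.68 at 0 h. Its difference of -0.59 ± 0.10 (adjusted p = 0.00174) was larger than that of its partner Racgap1 (-0.38, adjusted p = 0.0267), although the 2 were not tested against each other. Prc1, which bundles antiparallel microtubules, and the kinesin gene Kif20a were called at -0.44 (adjusted p = 0.00278) and -0.39 (0.00801). Ect2, the exchange factor that activates RhoA, was not called (-0.34, adjusted p = 0.0591): it read 9.31 and 8.95 in plus-titled cells at 4 h and 9.56 and 9.23 at 0 h, against 9.60 and 9.45 in no-titled cells at 4 h and 9.80 and 9.57 at 0 h.

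Of 5 chromosome condensation genes, 4 were called lower, against 7.74% of all genes. Smc2 and Smc4 encode the paired ATPases of condensin, and Ncapg and Ncapd2 encode subunits of condensin I. Ncapg read 7.79 and 7.49 in plus-titled cells at 4 h and 8.08 and 7.39 at 0 h, against 8.44 and 8.27 in no-titled cells at 4 h and 8.55 and 8.17 at 0 h. The difference of -0.67 ± 0.15 (adjusted p = 0.00945) came with the widest 95% interval of the 45 genes. Smc2 read 8.42 and 8.02 in plus-titled cells at 4 h and 8.61 and 8.21 at 0 h, against 8.81 and 8.78 in no-titled cells at 4 h and 9.10 and 8.96 at 0 h (-0.60 ± 0.11, adjusted p = 0.00414). Its partner Smc4 read 9.47 and 9.32 in plus-titled cells at 4 h and 9.57 and 9.07 at 0 h, against 9.72 and 9.51 in no-titled cells at 4 h and 9.94 and 9.60 at 0 h, with overlapping arms (-0.34 ± 0.12, adjusted p = 0.0879). Top2a, the topoisomerase that untangles sister chromatids, differed by -0.43 (adjusted p = 0.0152). A dimmer Top2a probe set, not used for the call, averaged 3.59 at 4 h and 3.59 at 0 h in plus-titled cells, against 3.91 and 3.90 in no-titled cells.

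Foxm1, the transcription factor of this gene set, read 8.32 and 8.07 in plus-titled cells at 4 h and 8.58 and 8.11 at 0 h, against 8.93 and 8.55 in no-titled cells at 4 h and 8.77 and 8.50 at 0 h. Replicates were far apart, and the arms overlapped at 8.58 and 8.50. Its mean difference of -0.42 ± 0.13 was nevertheless called (adjusted p = 0.0458).

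**Figure D3:**
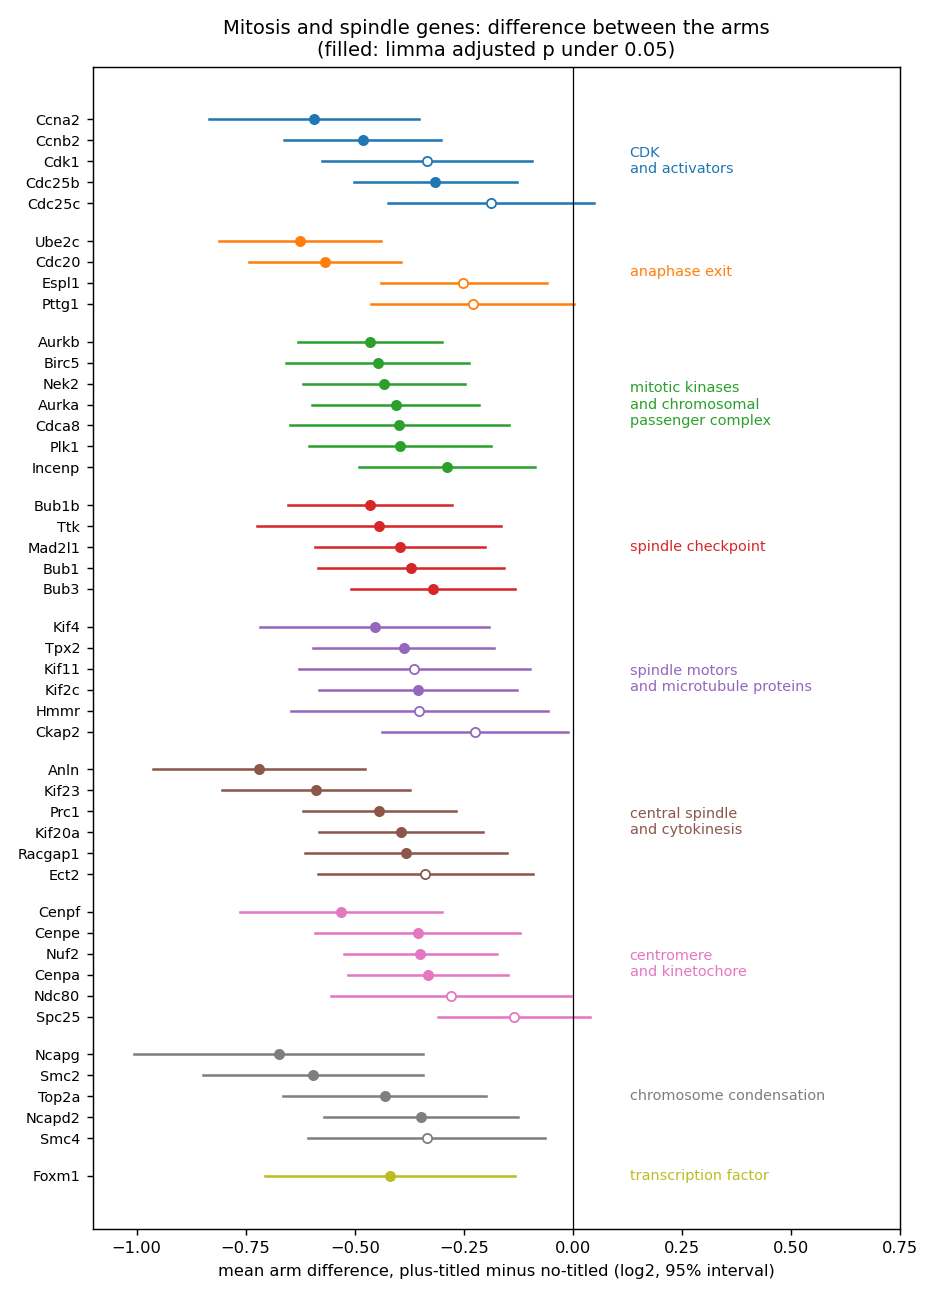
Mean arm difference (plus-titled minus no-titled, log2, horizontal axis) of each of the 45 genes with its 95% interval, grouped by role; filled points were called at a limma adjusted p under 0.05. All points lie left of 0, from -0.72 for Anln to -0.13 for Spc25, and 34 are filled.

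Taken at each time alone, the arm difference was called lower for 11 of 45 genes at 4 h (4.32% of all genes called lower and 5.29% higher) and for 13 of 45 at 0 h (3.18% lower and 6.2% higher), with 0 of the 45 called higher at either time. The medians were -0.41 at 4 h and -0.40 at 0 h. The compared arrays differ between the times, but both comparisons use the same spread estimated from all 8 arrays, so their calls are not independent. At both times 9 genes were called, against 2.06% of all genes: Ccnb2, Ccna2, Cdc20, Ube2c, Aurkb, Nek2, Bub1b, Kif23 and Smc2. Mad2l1 and Prc1 were called at 4 h and not at 0 h, and Plk1, Birc5, Cenpf and Anln at 0 h and not at 4 h. Anln differed by -0.55 ± 0.16 at 4 h (adjusted p = 0.051) and by -0.89 ± 0.16 at 0 h (adjusted p = 0.00609). Across the 45 genes the differences at 0 h and 4 h correlated with a Pearson r of 0.50 and a Spearman rho of 0.44, a description over genes that share arrays and co-vary, against a Pearson r of 0.72 over all genes. The 45 differences ran only from -0.89 to -0.15 at 0 h and from -0.72 to -0.10 at 4 h. All genes span both sides of 0, so the Pearson values are not comparable.

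**Figure D4:**
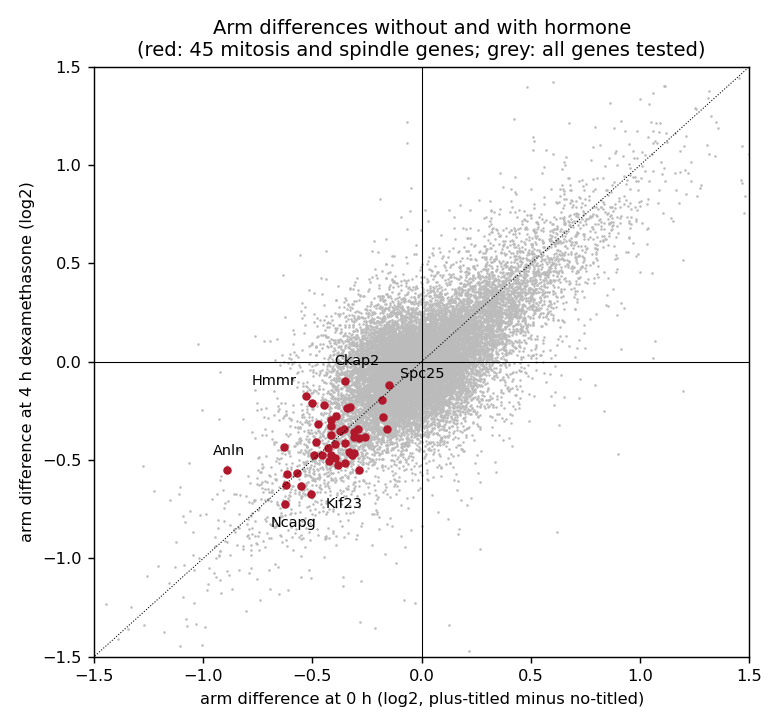
Arm difference at 0 h (horizontal) and at 4 h of dexamethasone (vertical), both log2 and plus-titled minus no-titled, for the 45 genes (red) and all genes tested (grey; genes beyond 1.5 in either direction are outside the frame, and the dotted line marks equal differences). All 45 red points lie in the lower left part of the plot, with Anln farthest left.

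The number of calls depended on single arrays, while the direction hardly did. For the mean difference, 34 genes were called with all arrays, against 19 and 33 without replicate 2 and replicate 1 of the treated plus-titled group, 25 and 39 without replicate 2 and replicate 1 of the untreated plus-titled group, 20 and 27 without replicate 1 and replicate 2 of the treated no-titled group, and 19 and 27 without replicate 1 and replicate 2 of the untreated no-titled group. A set of 18 genes was called in all 8 of these fits: Ccnb2, Ccna2, Cdc20, Ube2c, Aurka, Aurkb, Birc5, Nek2, Bub1b, Mad2l1, Kif20a, Kif23, Prc1, Anln, Cenpf, Nuf2, Smc2 and Ncapg. Calls that were kept in the fewest fits were those of Incenp (1 of 8) and of Cdca8, Kif2c, Ttk, Foxm1 and Cenpe (2 of 8 each). At 4 h the 11 calls became 1 and 4 without replicate 2 and replicate 1 of the treated plus-titled group, 18 without either untreated plus-titled array, 1 and 2 without replicate 1 and replicate 2 of the treated no-titled group and 7 without either untreated no-titled array. At 0 h the 13 calls became 7 without either treated plus-titled array, 24 and 2 without replicate 1 and replicate 2 of the untreated plus-titled group, 6 without either treated no-titled array and 1 and 2 without replicate 1 and replicate 2 of the untreated no-titled group. None of the calls made at a single time was kept in all 8 fits. The most often kept were Anln and Cdc20 at 0 h (7 of 8), and Ube2c and Kif23 at 4 h (6 of 8).

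Dexamethasone for 4 h called 0 of the 45 genes in either arm. In the plus-titled arm the median response was -0.11 and 38 of 45 genes were below 0 (51.6% of all genes), with a smallest limma adjusted p of 0.254. An unadjusted p under 0.05 was reached by 1 gene, against 9.98% of all genes. That gene was Kif23, at 7.92 and 7.70 with hormone, against 8.41 and 8.09 without (-0.44, limma adjusted p = 0.254). In the no-titled arm the median response was -0.10 and 33 of 45 genes were below 0 (48.3% of all genes). Before adjustment, 3 genes had a p under 0.05, against 9.1% of all genes. These were Cenpe at 7.64 and 7.53 with hormone, against 8.19 and 7.93 without (-0.47, adjusted p = 0.248), Ckap2 (-0.38, adjusted p = 0.36) and Hmmr (-0.47, adjusted p = 0.448). With trend and robust variance in limma, 0 genes were called in both arms, and 3 in the plus-titled and 6 in the no-titled arm had an unadjusted p under 0.05. Over all genes 1.1% were called in the plus-titled arm and 1.43% in the no-titled arm.

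The responses rested on single arrays. In the plus-titled arm, the median without replicate 1 of the untreated group was 0.06, with 15 of 45 genes below 0 and 1 with an unadjusted p under 0.05. Without replicate 2 of that group it was -0.24, with 44 below 0 and 15 with such a p. Leaving out replicate 1 of the treated plus-titled group gave -0.16 and 3 genes, and leaving out replicate 2 gave -0.03 and 0 genes. In the no-titled arm, the median was -0.05, with 28 of 45 genes below 0 and 0 with an unadjusted p under 0.05, without replicate 1 of the untreated or replicate 2 of the treated group. It was -0.14, with 37 below 0 and 2 with such a p, without the other array of either group, and 6 genes had such a p without either untreated plus-titled array. No gene was called in any of these limma fits. The 95% intervals of single genes reached from -0.74 to 0.46 in the plus-titled arm and from -0.88 to 0.51 in the no-titled arm, so that responses of a size like the arm differences are not shown to be absent.

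The difference of the responses (plus-titled minus no-titled) was called for 0 of 45 genes, against 0.00502% of all genes, and 0 had an unadjusted p under 0.05 (5.11% of all genes), also with trend and robust variance. Its median was -0.01, with values from -0.26 for Foxm1 to 0.36 for Hmmr, and the 95% intervals reached from -0.84 to 0.94. Anln had the smallest p (0.153, adjusted p = 0.997 by limma), with a log2 difference of 0.34. Without replicate 1 of the untreated plus-titled group the median was 0.13, with 34 of 45 genes above 0 and 5 with an unadjusted p under 0.05, and without replicate 2 it was -0.12, with 39 below 0 and 0 with such a p. It also changed sign to 0.05 when replicate 2 of plus-titled cells at 4 h was left out, to 0.03 without replicate 1 of the treated no-titled group, to 0.01 without replicate 2 of the untreated no-titled group and to 0.03 with cyclic loess. The call of the Anln arm difference at 0 h and not at 4 h is therefore not shown to be a change of that difference with hormone.

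**Figure D5:**
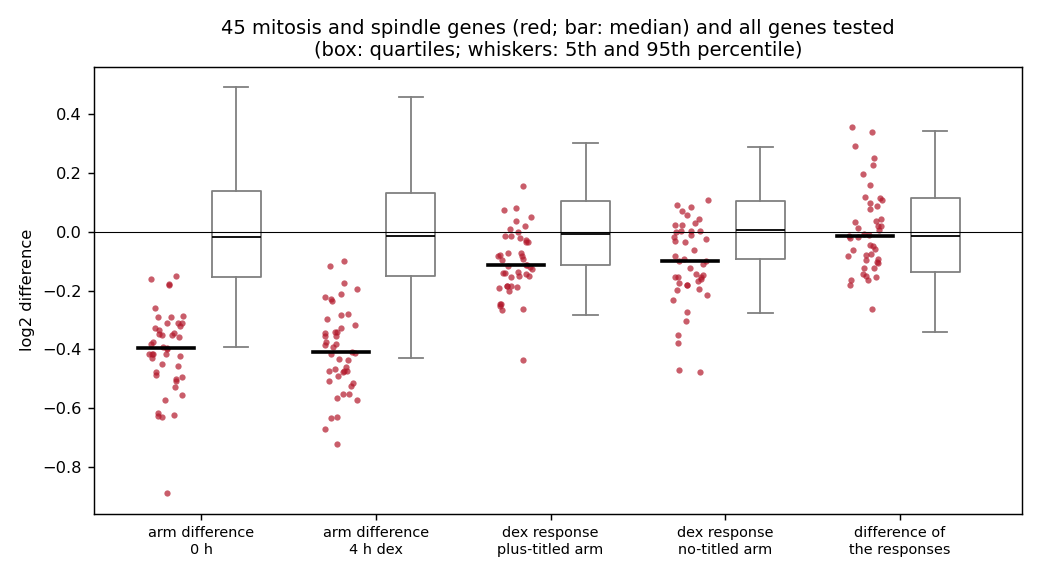
Log2 differences of the 45 genes (red points, black bar at the median) beside all genes tested (box at the quartiles, whiskers at the 5th and 95th percentile) for 5 comparisons. The medians of the 45 genes are -0.40 and -0.41 for the arm differences, -0.11 in the plus-titled and -0.10 in the no-titled arm for the hormone responses and -0.01 for the difference of the responses.

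Other genes of division, outside the 46, were lower in the plus-titled arm as well. Of 57 further mitotic genes measured of 60 listed, 24 (42.1%) were called lower and 0 higher at 4 h, with a median of -0.44. At 0 h, 18 (31.6%) were lower and 0 higher, with a median of -0.39. Over all genes, 4.32% were called lower and 5.29% higher at 4 h, and 3.18% lower and 6.2% higher at 0 h. Trip13, an AAA ATPase of the checkpoint, differed by -0.90 ± 0.13 at 4 h (adjusted p = 0.00214), Lmnb1, which encodes lamin B1, by -0.79 at 4 h and -0.66 at 0 h, Cenph by -0.76 at 4 h, and at 0 h Cenpk by -0.67 and the proliferation marker Mki67 by -0.65 (adjusted p = 0.0449). Of 35 measured genes of the replication helicase and S phase, 28 (80.0%) were called lower at 4 h and 18 (51.4%) at 0 h. In this list 0 were called higher, and the medians were -0.65 and -0.48. The helicase genes Mcm2 and Mcm6 differed by -0.90 and -0.86 at 4 h and the origin licensing gene Cdt1 by -0.88. At 0 h the clamp loader gene Rfc5 differed by -0.75, the thymidine kinase gene Tk1 by -0.74 and Mcm7 by -0.69. The lists were chosen with earlier results of these data known and were not tested against each other.

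Of 15 subunit genes of the anaphase-promoting complex, 0 were called lower and 1 higher at each time. Over all genes, 4.32% were called lower and 5.29% higher at 4 h, and 3.18% lower and 6.2% higher at 0 h. In a list this small, the counts do not set the complex apart from all genes. Its medians were -0.10 at 4 h and 0.03 at 0 h. The higher gene was Anapc13, at 0.61 ± 0.13 at 4 h (adjusted p = 0.0175) and 0.55 ± 0.13 at 0 h (0.029). Of 11 tubulin genes, 1 was called lower for the mean arm difference (Tubb5, -0.41, limma adjusted p = 0.00697), against 7.74% of all genes. At either time alone, 0 were called. Before adjustment, 2 of them at 4 h and 3 at 0 h had a p under 0.05, and Tubb5 had -0.41 at each time (limma adjusted p = 0.0595 at 4 h and 0.0647 at 0 h).

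Among cell cycle regulators, single genes were called in both directions. Of 23 cell cycle transcription regulators, 3 were called lower and 2 higher at 4 h, and 3 lower and 1 higher at 0 h. The shares over all genes were 4.32% lower and 5.29% higher at 4 h, and 3.18% lower and 6.2% higher at 0 h. With counts this small, a movement of the list as a whole is not shown. Mybl2, which encodes B-Myb, differed by -0.54 ± 0.14 at 4 h (adjusted p = 0.0354) and -0.60 ± 0.14 at 0 h (0.025). E2f8, a repressor of the E2F family, differed by -0.62 at 4 h and -0.53 at 0 h, and Rbl1, which encodes the pocket protein p107, by -0.67 and -0.54. Rb1, the retinoblastoma gene, was higher by 0.75 ± 0.12 at 4 h (adjusted p = 0.00349) and by 0.48 at 0 h (0.0306). Of 14 measured CDK inhibitors and G1 cyclins and kinases, 2 were higher and 2 lower (14.3%) at 4 h, and 1 higher and 1 lower (7.14%) at 0 h. The same shares over all genes apply, and counts this small do not show a movement of the list. The cyclin D3 gene Ccnd3 was higher by 0.62 at each time, and Cdkn1b, which encodes the CDK inhibitor p27, was higher by 0.45 at 4 h (adjusted p = 0.0493) and had 0.26 at 0 h (0.246). Ccne1, the cyclin E1 gene, which is in this list and in the S phase list, differed by -0.65 at 4 h (adjusted p = 0.0227), and Cdk6 by -0.39 at 0 h (0.0468).

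Marker genes of other cell types were read beside these differences. The luminal markers lay on both sides of the array medians of 5.59 to 5.69. Group means were lower for Epcam (4.18 to 4.49), Cdh1 (4.86 to 5.10), Krt18 (4.87 to 5.28), Krt19 (4.66 to 4.87) and Elf5 (4.66 to 4.93). They were higher for Gata3 (7.76 to 8.03) and Esr1 (5.86 to 6.17), and Krt8 lay at 5.63 to 5.96. Of the mesenchymal markers, Vim lay between 12.66 and 12.99 and Thy1 between 5.66 and 6.10. Levels of different probe sets are not comparable, so these values do not rank the cell types. Of 8 luminal markers, 5 leukocyte, 4 endothelial, 3 adipocyte and 3 pituitary corticotroph markers, 0 were called for the mean arm difference by limma, and 2, 0, 0, 1 and 0 had an unadjusted p under 0.05. Of 6 basal markers 1 was higher (Acta2) and 1 lower (Krt14), and of 8 mesenchymal markers 2 were higher and 3 lower. The shares over all genes were 7.74% lower and 11.0% higher. In lists this small, the counts do not set a cell type apart from all genes. Acta2 replicates lay far apart in plus-titled cells, at 7.87 and 6.63 at 4 h and 8.15 and 6.96 at 0 h. The summed linear signal of the mesenchymal markers was 12030 to 12440 in plus-titled cells at 4 h and 12600 to 13120 at 0 h, against 15340 to 15810 in no-titled cells at 4 h and 16270 to 16540 at 0 h. That of the basal markers was 255.1 to 409.4 and 295.9 to 441.4 in plus-titled cells, against 263.4 to 292.6 and 267.1 to 308.7 in no-titled cells, at 4 h and 0 h in turn. Such sums weigh bright probe sets most, in the mesenchymal list Vim and Col1a2 (group means 11.41 to 12.14). They do not measure the amount of a cell type. Pdgfra went the other way, with 8.26 and 8.41 in plus-titled cells, against 7.67 and 7.53 in no-titled cells (group means at 4 h and 0 h). So did Pdgfrb, with 8.84 and 9.59 against 8.54 and 9.06. The part of these markers in the lower mitotic genes was not tested.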

How the data were processed

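RNA of 8 samples (4 title-named groups of 2) was hybridised to Affymetrix arrays. The deposited table holds log2 values of 28888 probe sets; per the submitters' processing notes, the authors used Affymetrix Expression Console and RMA, with no version stated. RMA equalises the arrays' distributions, so a shift shared by most genes cannot be seen, and it compresses small differences of dim genes. Of these, 21789 had exactly 1 annotated symbol, 1621 had several and 5478 had none in the annotation used. Names were updated by gene number for 21698. No filter on signal was applied, and all 45 measured genes were tested. The genes and lists were chosen with earlier results of these data known. Group means were fitted to the 8 arrays with limma 3.58.1 in R 4.3.3 (lmFit, eBayes), 2-sided, with Benjamini-Hochberg adjustment over 19938 genes and calls at an adjusted p under 0.05. It had 4 residual and 6.64 prior degrees of freedom. All adjusted p-values are from limma. The procedure was tested on simulated data. Values on every array are given for some genes. In each role these were the 2 with the smallest and the 1 with the largest p for the mean arm difference. Cdk1, Plk1 and Foxm1 were shown in every case. The 2 with the smallest p in each comparison were also picked, but Cenpe and Cdc25b are shown on some arrays only. Genes of the other lists were named from up to 3 called genes with the largest change at each time. With none called, they were named from the 2 with the smallest p. These are given as differences only. Promoters came from RefSeq. Alternatives were trend and robust variance, a fit of the compared arrays only, a replicate block, leaving out dim genes, cyclic loess, median centring, the mean of a gene's probe sets and leaving out each array.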

Additional observations from a re-analysis of the deposited data

How the results depend on the processing

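All 45 genes stayed below 0 for the arm differences at 0 h, at 4 h and in their mean under every setting, except Ndc80 at 0 h, which was 0.004 without replicate 2 and -0.66 without replicate 1 of the untreated plus-titled group. The count for the mean difference stayed within 1.5 times of 34 outside the fits without 1 array, which gave 19 to 39. At 0 h, 13 calls became 22 with trend and robust variance, 5 with only the arrays compared, 20 with cyclic loess and 5 with median centring, and 1 to 24 without 1 array. At 4 h, 11 calls became 26 with trend and robust variance, 18 without dim genes and 17 with cyclic loess, and 1 to 18 without 1 array. Responses to dexamethasone and their difference had 0 calls under every setting. The replicate number as a block gave 17 calls at 0 h, 24 at 4 h and 40 for the mean difference; same-numbered arrays deviated together only weakly over all genes (r -0.02 to 0.13 between groups), so the number was not taken as a pairing. For single genes and comparisons, 281 values lost their call in an alternative, 137 gained one and 2056 kept direction and call; the causes were not tested.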

Other observations

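The promoter letters were also read outside the listed genes. Of 1026 measured genes whose promoter window holds both TTTGAA and CCAAT, with the mitosis and spindle genes and all other listed cell cycle genes left out, 7.89% were called lower and 6.92% higher for the mean arm difference, with a median of -0.03. Among 14428 genes without both motifs, 7.23% were called lower and 12.1% higher, with a median of -0.02. Within the mitosis and spindle genes, 21 of the 29 with TTTGAA were called lower (72.4%, median -0.40), and 7 of the 8 measured without it (87.5%, median -0.36). These shares are descriptions, and their differences were not tested.

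Outside the 46 genes, 3 of 153 measured cell cycle genes on the lists were called for a dexamethasone response in either arm. Over all genes, 1.1% were called in the plus-titled and 1.43% in the no-titled arm. Those are shares of each arm alone, so a count over either arm cannot be read as raised against them. Wee1, which encodes an inhibitory kinase of CDK1, had a log2 response of 0.57 in plus-titled cells (limma adjusted p = 0.0555) and was called higher, at 0.75, in no-titled cells (0.00884). Tfdp2, which encodes a dimer partner of E2F, was called higher, at 0.85, in plus-titled cells (0.0218), with 0.47 in no-titled cells (0.255). Rb1 had -0.37 in plus-titled cells (0.258) and was called lower, at -0.64, in no-titled cells (0.0229). The 3 genes were chosen after their values were seen, and none is shown to respond differently in the arms.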
